A study of Mus musculus with 24 samples.

Results

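The interferon regulatory factors (IRFs) are a family of transcription factors, and 8 of the 45237 genes listed in the count table are described here: Irf1, Irf2, Irf3, Irf4, Irf5, Irf7, Irf8 and Irf9. They were picked by gene symbol, and all 8 passed the filter on low counts. The study followed natural killer (NK) cells in mice carrying a T lymphoma line or a subclone of it altered in molecules that NK cells read. NK cells were sorted from the spleen of wild-type female C57BL/6J mice, 7 to 9 weeks old in the study's general methods, by depletion of other cells and then gates for NKp46 and NK1-1 without CD3, CD5 or T cell receptor. PolyA RNA was sequenced in 24 libraries over 7 groups. RMA is a mouse T lymphoma line. RMA-KR is a subclone made from it, with B2m knocked out and the NKG2D ligand Rae1-beta added. The study's text describes both RMA and RMA-KR cells as expressing the fluorescent protein ZsGreen. The Control group (n = 4) received no tumor cells. RMA cells were injected intravenously and NK cells taken on day 2 (RMA early, n = 3), day 4 (RMA intermediate, n = 3) and day 9 (RMA late, n = 3). RMA-KR cells were injected the same way and NK cells taken on day 2 (RMA-KR early, n = 3), day 7 (RMA-KR intermediate, n = 5) and day 14 (RMA-KR late, n = 3). Stages of the same name therefore fall on different days in the tumor models, except for the early stage, and line and day cannot be told apart at the other stages.

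IRF proteins share a DNA-binding domain that recognises GAAA repeats in interferon-stimulated response elements. IRF3, IRF5 and IRF7 are switched on by kinases downstream of nucleic acid sensors and drive interferon genes, IRF9 is the DNA-binding part of the complex ISGF3 that carries the type I interferon signal to its target genes, and IRF1 and IRF2 act on overlapping sites as activator and mostly as repressor. IRF4 and IRF8 bind weakly alone and work with partners such as PU.1 and BATF in lymphoid and myeloid cells, and NK cells need IRF2 for maturation and IRF8 for antiviral responses.

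Library totals ran from 5138651 to 14863500 counts with a median of 10489204, so that 3 counts, the limit that a count of 0 allows, equal 0.208 CPM (counts scaled to library size) in the largest and 0.555 CPM in the smallest library. Such limits cover counting error only. CPM values were scaled with the trimmed mean of M-values (TMM). The labels number the libraries of a group without saying whether each came from its own mouse. The study's text counts the control and late groups of its RNA sequencing in mice, with a control number other than the 4 libraries here, so the spread behind the tests may be partly technical. Within groups, log2 CPM of library pairs correlated at r = 0.810 to 0.964 across genes (31 pairs), and genes are not independent replicates. In 4 libraries, Control 4 and RMA-KR intermediate 3, 4 and 5, immediate early genes such as Fos, Jun and Junb summed to 1253 to 1389 CPM, against 4368 to 9862 CPM in the other 20. RMA early 2 had the largest share of tested genes at 0, 28.8%. All 10 NK cell markers passed the filter and none was at 0 in any library, with Ncr1 at 1625 to 4040 CPM and Gzma, the most abundant, at 4445 to 16440 CPM.

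Per length, Irf8 was the most abundant member in 23 of 24 libraries and Irf1 in the other, Control 4, where Irf8 led in CPM (757 against 517). The length is an annotated median (1284 bases for Irf8, 828 for Irf1), not that of the transcript expressed, and the order of members depends on it. Dividing CPM by the authors' value for the median transcript length gave Control means of 820 CPM per kb for Irf8 (SD 220.5, n = 4), 670 for Irf1 (SD 138), 195 for Irf7 (SD 15.4) and 176 for Irf3 (SD 28.0). Irf2 stood at 90.8 CPM per kb (SD 44.8), Irf9 at 57.7 (SD 12.8), Irf5 at 24.4 (SD 2.59) and Irf4 at 0.721 (SD 1.15). In this order the Control libraries of Irf8 and Irf1 overlapped, as did those of Irf7 and Irf3 and of Irf2 and Irf9, while the other neighbours did not. The level of every member in each library is drawn in the plot of members by library.

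**Figure D1:**
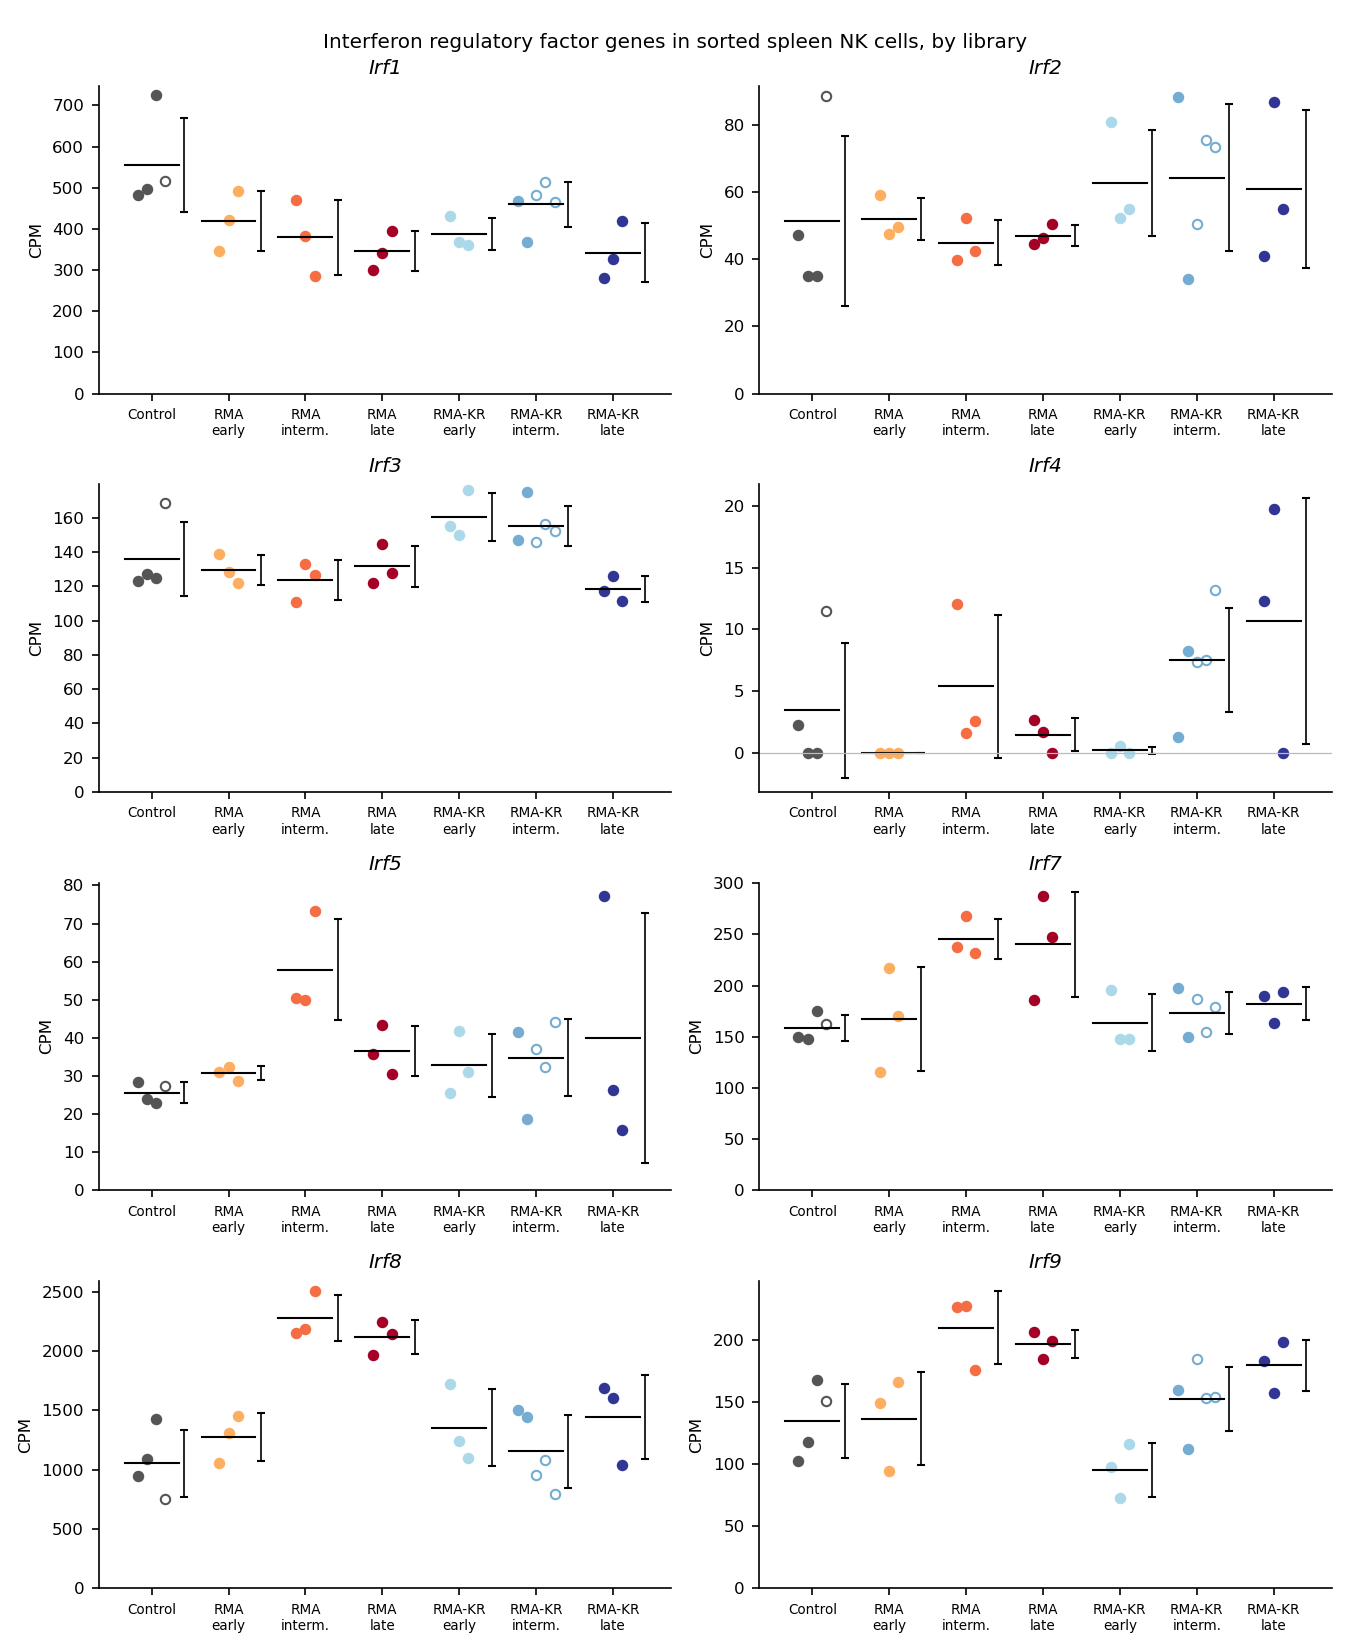
CPM of the 8 IRF genes in each of the 24 libraries, by group; lines mark group means and bars 1 SD, and open circles mark the 4 libraries lowest in immediate early genes. The Irf8 values of RMA intermediate (2152 to 2504 CPM) and RMA late (1966 to 2245 CPM) lie above all Control values (757 to 1426 CPM).

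Irf8, a factor known for directing monocyte and dendritic cell development and also used by NK cells, rose in mice bearing RMA cells at the intermediate and late stage. In Control libraries 1 to 4 it read 942, 1086, 1426 and 757 CPM. RMA early gave 1052, 1310 and 1450 CPM, RMA intermediate 2152, 2187 and 2504 CPM, and RMA late 1966, 2245 and 2145 CPM. All 6 intermediate and late RMA libraries were above every Control and every RMA early library, while RMA early overlapped Control. RMA-KR early gave 1723, 1237 and 1102 CPM, RMA-KR intermediate 1505, 1441, 951, 1082 and 794 CPM, and RMA-KR late 1685, 1607 and 1036 CPM. Each RMA-KR group overlapped Control. Ordered by mean, RMA intermediate (2281 CPM, SD 194) and RMA late (2119 CPM, SD 141) came first, followed by RMA-KR late (1443 CPM, SD 355), RMA-KR early (1354 CPM, SD 326), RMA early (1271 CPM, SD 202), RMA-KR intermediate (1155 CPM, SD 309) and Control (1053 CPM, SD 283). RMA late and RMA-KR late were the only neighbours in this order whose libraries did not overlap. The sequencing of sorted bulk cells cannot tell more RNA per cell from more cells of a kind with a high level.

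Against Control, Irf8 was 2.17-fold higher in RMA intermediate (log2 fold change 1.12, SE 0.22, adjusted p 0.00678; 3 of 3 libraries above all 4 controls) and 2.01-fold higher in RMA late (1.01, SE 0.22, adjusted p 0.0119; 3 of 3). The intermediate call held in 17 of 17 alternatives, with log2 fold changes from 0.95 to 1.26 and adjusted p up to 0.0433. The late call held in 14 of 17 and ended without Control 1 (0.94, adjusted p 0.0583), without Control 4 (0.85, adjusted p 0.0718) or without RMA late 2 (0.99, adjusted p 0.0706). For the other groups the Irf8 log2 fold change was 0.27 in RMA early (SE 0.22, adjusted p 0.832), 0.36 in RMA-KR early (SE 0.22, adjusted p 0.695), 0.13 in RMA-KR intermediate (SE 0.20, adjusted p 0.999) and 0.45 in RMA-KR late (SE 0.22, adjusted p 0.355). All 6 comparisons share the 4 Control libraries.

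Set against each other at the intermediate stage, the tumor models differed in Irf8, which was 1.98-fold higher in RMA than in RMA-KR (log2 fold change 0.98, SE 0.21, adjusted p 0.0283), with all 3 RMA libraries above all 5 RMA-KR libraries. This call held in 10 of 18 alternatives. It ended without RMA intermediate 1, 2 or 3 (adjusted p 0.0636, 0.0852 and 0.154), without RMA-KR intermediate 3, 4 or 5 (0.0843, 0.107 and 0.0840), and with all 4 libraries low in immediate early genes left out (0.63, adjusted p 0.319), a setting chosen after seeing the data. It also ended with replicate number as a block (0.78, adjusted p 0.220). At the late stage the difference was 0.55 (SE 0.24, adjusted p 0.655), again with no overlap, and at the early stage -0.09 (SE 0.24, adjusted p 0.936), with overlap. From early to late, Irf8 differed by 0.74 within RMA (SE 0.24, adjusted p 0.104; 3 of 3 late libraries above all early ones) and by 0.09 within RMA-KR (SE 0.24, adjusted p 0.912). The difference between these, the interaction, was 0.65 (SE 0.34, adjusted p 0.522).

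Irf1, an activator of antigen presentation and interferon-gamma response genes, was lowest in the late groups. Control libraries held 482, 496, 724 and 517 CPM. RMA early held 345, 422 and 491 CPM, RMA intermediate 469, 382 and 286 CPM, and RMA late 301, 341 and 396 CPM. Control and RMA early overlapped, while the intermediate and late RMA libraries were all below every Control library. RMA-KR early held 432, 368 and 361 CPM, RMA-KR intermediate 468, 369, 482, 515 and 465 CPM, and RMA-KR late 280.2, 327 and 419.8 CPM. RMA-KR early and late lay below every Control library and RMA-KR intermediate overlapped Control. No Irf1 difference passed the test with edgeR. The log2 fold change against Control was -0.68 in RMA late (SE 0.19, adjusted p 0.0545), -0.70 in RMA-KR late (SE 0.19, adjusted p 0.0767), -0.55 in RMA intermediate (SE 0.19, adjusted p 0.156), -0.52 in RMA-KR early (SE 0.19, adjusted p 0.438), -0.40 in RMA early (SE 0.19, adjusted p 0.705) and -0.27 in RMA-KR intermediate (SE 0.16, adjusted p 0.967). With DESeq2 the RMA late value passed (adjusted p 0.0157), as it did with limma voom (0.00632) and with at least 10 counts in every library (0.0261), over a range of 0.00632 to 0.421 in 17 alternatives. The RMA intermediate value passed with limma voom alone (0.00377). The RMA-KR late value passed with DESeq2 and with limma voom. Between the tumor models Irf1 differed by 0.12, -0.28 and 0.02 on the log2 scale at the early, intermediate and late stage, with adjusted p of 0.881, 0.474 and 1.

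Irf7, the interferon-induced amplifier of interferon production, stood at 149.9, 148, 175 and 162 CPM in Control. It reached 238, 268 and 231 CPM in RMA intermediate and 186, 288 and 248 CPM in RMA late. These 6 libraries lay above every Control library, by 0.63 at the intermediate (SE 0.19, adjusted p 0.0786) and 0.60 at the late stage (SE 0.19, adjusted p 0.0934) on the log2 scale, neither past the threshold. RMA early (115, 217 and 170.3 CPM), RMA-KR early (196, 148 and 147 CPM), RMA-KR intermediate (198, 149.6, 186, 154 and 179 CPM) and RMA-KR late (189, 164 and 193 CPM) overlapped Control. DESeq2 called Irf7 in both RMA comparisons, as limma voom did.

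Irf9, the DNA-binding part of ISGF3, was at 103, 118, 168 and 151 CPM in Control, 226, 228 and 176 CPM in RMA intermediate and 207, 185 and 199 CPM in RMA late. Both RMA groups lay above Control, the first by 0.64 on the log2 scale (SE 0.21, adjusted p 0.137), the other by 0.54 (SE 0.21, adjusted p 0.223). The first passed with limma voom alone (adjusted p 0.0189). RMA-KR early held 97.9, 72.9 and 116 CPM and RMA-KR late 184, 158 and 198 CPM, without overlap between these stages. The early to late difference within RMA-KR was 0.91 (SE 0.23, adjusted p 0.0810), and it passed with DESeq2 and with at least 10 counts in every library (adjusted p 0.0470). RMA early held 149, 94.6 and 166 CPM and RMA-KR intermediate 159.6, 112, 185, 153 and 154 CPM, overlapping Control.

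Irf5, a mediator of Toll-like receptor signals best known from macrophages and B cells, was low, at 28.5, 23.9, 22.8 and 27.3 CPM in Control. RMA intermediate held 50.5, 49.8 and 73.2 CPM and RMA late 35.9, 43.4 and 30.5 CPM. Each of these values exceeded all Control values, as did those of RMA early (31.1, 32.3 and 28.7 CPM). The log2 fold change against Control was 1.18 in RMA intermediate (SE 0.38, adjusted p 0.127) and 0.51 in RMA late (SE 0.38, adjusted p 0.610). The first passed with DESeq2, with limma voom and when only the compared groups were fitted. RMA-KR late ran from 15.9 to 77.3 CPM, RMA-KR early from 25.6 to 41.8 CPM and RMA-KR intermediate from 18.6 to 44.1 CPM, all overlapping Control.

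Irf3, the constitutive factor that sensors activate by phosphorylation, ranged from 111 to 176 CPM over all 24 libraries. Control held 123, 127, 125 and 168 CPM, RMA intermediate 111, 133 and 127 CPM and RMA-KR intermediate 147, 175, 146, 156 and 153 CPM. RMA intermediate lay below RMA-KR intermediate in every library while both overlapped Control, and the difference did not pass (log2 fold change -0.33, SE 0.14, adjusted p 0.346). RMA-KR early (155, 149.9 and 176 CPM) and RMA-KR late (117, 126 and 112 CPM) did not overlap either, late minus early being -0.44 on the log2 scale (SE 0.16, adjusted p 0.242; 0.0202 with DESeq2).

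Irf2, the counterpart of Irf1 at shared sites, ranged from 33.9 to 88.4 CPM, with group means from 44.9 CPM (SD 6.66, RMA intermediate) to 64.3 CPM (SD 21.8, RMA-KR intermediate), and no group was apart from Control. Its smallest adjusted p in the 12 comparisons was 0.457. Irf4, a factor that activated lymphocytes induce in step with receptor signals, was unevenly detected. It had 0 counts in 9 of 24 libraries, among them all 3 of RMA early, and RMA-KR late held 12.3, 19.8 and 0 CPM, the second being the highest value of all. Control held 2.22, 0, 0 and 11.5 CPM. RMA intermediate held 12.1, 1.57 and 2.52 CPM and RMA-KR intermediate 1.25, 8.28, 7.34, 7.51 and 13.2 CPM. With 2 of 4 Control libraries at 0, no fold is given for Irf4, and its groups overlapped Control throughout.

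Counted over the family, 1 of 8 members, Irf8, was called in RMA intermediate against Control with edgeR, where 2.35% of the 17097 genes tested were called, and the median log2 fold change was 0.63 for the members and -0.29 for all genes. Irf8 was also the 1 member called in RMA late against Control (2.66% of genes called; medians 0.23 and -0.18) and in RMA intermediate against RMA-KR intermediate (0.643% called; medians 0.09 and -0.23). The same single gene was called with DESeq2 size factors in all 3. The member medians include the fitted value of Irf4, for which no fold is given. Without it the RMA late median is the value of Irf5, 0.51. DESeq2's own test called 3 members in each of the first 2 comparisons (Irf8 and Irf7, with Irf5 at the intermediate and Irf1 at the late stage), where it called 955 and 1054 of 44723 genes. In RMA intermediate, 4 members were higher than Control without overlap (Irf5, Irf7, Irf8 and Irf9; 10.2% of all genes were) and 1 lower (Irf1; 10.5%). RMA late gave the same 4 higher (9.24% of genes) and the same 1 lower (8.81%), with either scaling. Genes so placed were common in the whole table, and the members were not tested against it.

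Against Control, edgeR called 0 of 8 members in the other tumor groups. RMA early, where 0% of genes were called, had 2 members at an unadjusted p under 0.05 (1204 of all 17097 genes) and 0 called by DESeq2 or limma voom, with 1 member, Irf5, higher without overlap (2.12% of genes) and 0 lower (4.94%). RMA-KR early (0.0994% called) also had 2 at an unadjusted p under 0.05 (1490 genes) and 0 by the other tools, with 0 higher without overlap (4.5% of genes) and 1, Irf1, lower (6.01%). RMA-KR intermediate (0.0175% called) had 0 at an unadjusted p under 0.05 (1011 genes) and 0 by the other tools, with 0 higher (1.33%) and 0 lower (1.29%). RMA-KR late (1.22% called) had 1 (2430 genes), Irf1, which DESeq2 and limma voom called among 663 and 406 genes, with 0 members higher without overlap (5.88% of genes) and 1, Irf1, lower (7.73%). The plot of differences from Control sets these values side by side.

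Members without overlap were also counted between tumor models and stages. In RMA intermediate against RMA-KR intermediate 3 were higher (Irf5, Irf7 and Irf8; 5.82% of genes) and 1 lower (Irf3; 3.36%). The early models set against each other (0.339% of genes called) had 0 members called by edgeR, DESeq2 or limma voom and 1 at an unadjusted p under 0.05 (2101 genes), with 0 higher (5.56%) and 1, Irf3, lower (7.21%). The late models (0% called) likewise had 0 called by the 3 tools and 1 at an unadjusted p under 0.05 (1249 genes), with Irf8 higher (5.18%) and 0 lower (3.95%). RMA late against early (2.87% called) had 0 called by the 3 tools and 4 at an unadjusted p under 0.05 (2936 genes), with 2, Irf8 and Irf9, higher (11.5%) and 0 lower (7.63%). RMA-KR late against early (0.392% called) had 0 called by edgeR, 3 at an unadjusted p under 0.05 (2559 genes), 2 by DESeq2 (Irf3 and Irf9, among 609 genes) and 0 by limma voom, with Irf9 higher (7.24%) and Irf3 lower (8.28%). The interaction (0% called) had 0 called by the 3 tools and 1 at an unadjusted p under 0.05 (1777 genes).

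**Figure D2:**
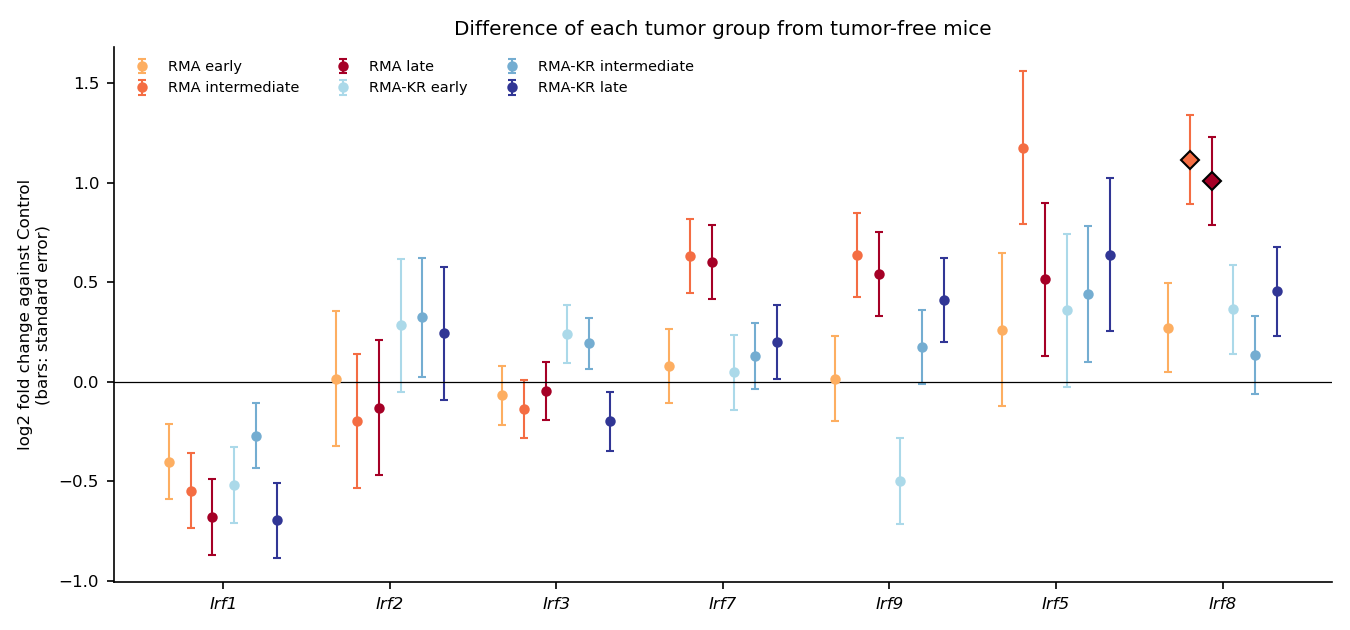
Log2 fold change against Control (y axis) of 7 IRF genes (x axis) in the 6 tumor groups, with bars of 1 SE. Black-edged diamonds mark an adjusted p under 0.05, and Irf4, at 0 in 9 of 24 libraries, is not drawn. Irf8 in RMA intermediate (1.12) and RMA late (1.01) carries the mark, and Irf1 lies below 0 in each of the 6 groups.

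Within the family, Irf8 took a larger and Irf1 a smaller share than in Control in most tumor groups, by group mean, with RMA-KR intermediate nearest to Control. Over the summed CPM per kb of the 8 members, Irf8 took 39.96% in Control (SD 5.99), 60.8% in RMA intermediate (SD 4.34), 60.4% in RMA late (SD 1.25) and 52.0% in RMA-KR late (SD 8.23), and Irf1 took 32.8% (SD 1.57), 15.7% (SD 3.96), 15.3% (SD 1.48) and 19.7% (SD 6.24). In RMA-KR intermediate they took 42.7% (SD 7.91) and 26.9% (SD 4.39), in RMA early 48.2% (SD 1.49) and 24.6% (SD 1.26), and in RMA-KR early 49.5% (SD 3.85) and 22.3% (SD 1.31). The ratio of Irf8 to Irf1 CPM had a median of 1.96 in Control, between 1.46 and 2.19. It was 3.05 in RMA early, 5.73 in RMA intermediate (4.59 to 8.74), 6.54 in RMA late (5.42 to 6.58), 3.36 in RMA-KR early, 2.10 in RMA-KR intermediate (1.71 to 3.91) and 4.92 in RMA-KR late (2.47 to 6.01). Every tumor group other than RMA-KR intermediate lay above Control in this ratio, which was chosen after the values were seen and was not tested. The shares rest on the annotated lengths, while the ratio of CPM does not use them.

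Across the 24 libraries and among 8284 genes, the expression patterns nearest to Irf8 by Pearson's r of log2 CPM were those of Anapc5 (0.88), Gzmb (0.88) and Xdh (0.88), Gzmb being a granzyme of killer cells. Irf7 was nearest to the interferon-induced genes Lgals3bp (0.82) and Gbp6 (0.81) and to Exosc8 (0.81). Irf9 was nearest to Eif4h (0.88), Thoc7 (0.87) and Ogfr (0.83). For Irf1 they were Ppwd1 (0.75), Anks1 (0.72) and Snhg8 (0.71), and for Irf5 Ctsb (0.69), S100a11 (0.69) and Mitd1 (0.66). Irf2 came nearest to Cherp (0.76), Irf3 to Htra2 (0.74) and Irf4, at 0 counts in 9 of 24 libraries, to Gnai2 (0.77). The values given are the largest among 8284 genes for each member, and none was tested. Libraries of a group share its mean, so these values describe group patterns as well as single libraries.

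Upstream of the IRFs, of 11 interferon genes listed 7 were in the table and 1, Ifng, passed the filter. Ifng stood at 244 CPM in Control (SD 133), 368 CPM in RMA intermediate (SD 28.6), 518 CPM in RMA late (SD 60.3) and 423 CPM in RMA-KR late (SD 82.8), and it was not called in any of the 12 comparisons (at an unadjusted p under 0.05 in 1, RMA late against Control; called by limma voom there and in RMA intermediate against RMA-KR intermediate, and by DESeq2 in 0). Usp18, which restrains the type I interferon receptor, rose against Control in RMA intermediate (log2 fold change 3.01, SE 0.40), RMA late (2.96, SE 0.40) and RMA-KR late (1.95, SE 0.39). The RMA-KR late call held in 11 of 17 alternatives and ended without Control 1, 2 or 4 or RMA-KR late 3 (adjusted p 0.0522 to 0.0586). It also ended without the 4 libraries low in immediate early genes (0.0506) and in another alternative (0.0812). Stat2 was not called in RMA intermediate (0.04, SE 0.32, adjusted p 0.979).

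Of 19 sensor, adaptor and kinase genes tested, which feed IRF3 and IRF7, only Zbp1, a sensor of Z-form nucleic acid, passed with edgeR. It was higher in RMA intermediate (1.12, SE 0.27, adjusted p 0.0272) and RMA late (1.02, SE 0.27, adjusted p 0.0436). Leaving out any of the 7 libraries compared ended the intermediate call (adjusted p 0.0517 to 0.122), and leaving out any but RMA late 3 ended the late call (0.0729 to 0.328). Both also ended without the 4 libraries low in immediate early genes (0.0514 and 0.0779), and each held in 9 of 17 alternatives.

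Some of the genes that ISGF3 is known to drive rose at the intermediate and late stage in RMA-bearing mice. Of 26 tested, 9 were called higher and 0 lower in RMA intermediate against Control, with a median log2 fold change of 1.76 against -0.29 for all genes, and 9 higher and 0 lower in RMA late. Over all 17097 genes tested, 317 were called higher and 84 lower in RMA intermediate, and 366 higher and 89 lower in RMA late. Counting genes whether called or not, 24 and 23 of the 26 had a log2 fold change above 0. The share of all genes above 0 was not counted, but their median was below 0 in both comparisons (-0.29 and -0.18). By the smallest p, the intermediate stage gave Trim30a (1.57, SE 0.18), Lgals3bp (1.70, SE 0.26), the virus tether Bst2 (2.09, SE 0.38), Ifi27l2a (5.36, SE 1.00), Rtp4 (1.98, SE 0.37) and the oligoadenylate synthetase Oas1a (2.23, SE 0.42). The late stage gave Trim30a (1.14, SE 0.18), Xaf1 (1.58, SE 0.27), Ifi27l2a (5.88, SE 1.02), Lgals3bp (1.37, SE 0.26), Rtp4 (1.91, SE 0.37) and Oas1a (2.15, SE 0.42). These named calls held in every alternative that tested the gene. Among the other calls, Parp9's at the intermediate stage held in 8 of 17 and ended without Control 1, 3 or 4 or RMA intermediate 1, 2 or 3 (adjusted p 0.0526 to 0.135) and without the 4 libraries low in immediate early genes (0.0607). At the late stage Ifit3's held in 8 of 16 and ended without any Control library or RMA late 1 or 2 (0.0806 to 0.231) and without those 4 (0.0802). Ifi35's late call held in 14 of 17, ending without RMA late 1 or 2 (0.0507 and 0.0800) and in another alternative (0.126). Its intermediate call held in 16 of 17 (adjusted p up to 0.136). Bst2's late call ended without RMA late 2 (0.0947). The calls of Parp9 and Ifit3 also ended in alternatives that left out no library. Summed over the list, Control libraries ran from 1040 to 1432 CPM, RMA intermediate from 3388 to 3905 CPM and RMA late from 2559 to 3455 CPM, both without overlap with Control. RMA-KR late ran from 1743 to 2376 CPM, also above Control, with 1 gene called, Eif2ak2 (1.98, SE 0.47, adjusted p 0.0360), and a median of 0.78 against -0.18. That call held in 7 of 17 alternatives and ended without any 1 of the 4 Control libraries or RMA-KR late 3 (adjusted p 0.0531 to 0.242). It also ended without the 4 libraries low in immediate early genes (0.116) and in some alternatives that left out no library. RMA early and RMA-KR early and intermediate against Control had 0 called by edgeR and DESeq2 and 0 by limma voom, with 5, 2 and 3 genes at an unadjusted p under 0.05.

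Against RMA-KR intermediate, RMA intermediate had 5 ISGF3 target genes called higher and 0 lower (median 1.40 against -0.23): Trim30a (1.41, SE 0.17), Xaf1 (1.28, SE 0.25), Ifi27l2a (4.02, SE 0.85), Parp9 (0.97, SE 0.21) and Bst2 (1.52, SE 0.35), beside Usp18 (1.99, SE 0.37). Over all 17097 genes tested, 101 were called higher and 9 lower in this comparison. Trim30a and Usp18 held in 18 of 18 alternatives. Each of the other 4 lost its call without at least 5 different libraries taken singly, namely Bst2 without any of the 8 compared (adjusted p 0.0617 to 0.164), Parp9 without any but RMA-KR intermediate 3 (0.0685 to 0.173) and without the 4 low in immediate early genes (0.0576), Xaf1 without RMA intermediate 1, 2 or 3 or RMA-KR intermediate 1 or 4 (0.0511 to 0.0728), and Ifi27l2a without RMA intermediate 1 or RMA-KR intermediate 1, 2, 3 or 4 (0.0525 to 0.165). Bst2 and Parp9 held in 6 of 18 alternatives each, Xaf1 in 13 of 18 and Ifi27l2a in 10 of 17. The calls of Bst2, Parp9 and Ifi27l2a also ended in some alternatives that left out no library. At the late stage the models differed in 0 of the 26 genes with edgeR, DESeq2 or limma voom, with 8 at an unadjusted p under 0.05.

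Genes known as IRF1 targets were called only upward. Calls over all genes tested were also mostly higher, 317 against 84 lower in RMA intermediate and 366 against 89 in RMA late. Irf1 itself lay below Control in both groups, but edgeR did not call it (adjusted p 0.156 and 0.0545). Of 18 tested, 4 rose against Control in RMA intermediate, Gbp3 (1.05, SE 0.19), Tap1 (1.01, SE 0.19), Tapbp (0.90, SE 0.17) and Psmb8 (0.69, SE 0.16), and 5 in RMA late, Gbp3 (1.06, SE 0.19), Psmb8 (0.94, SE 0.16), Psmb9 (0.93, SE 0.20), Tap1 (0.84, SE 0.19) and B2m (0.73, SE 0.19), with 0 lower. Tap1, Tapbp, Psmb8, Psmb9 and B2m serve peptide loading on MHC class I, and Gbp3 is an interferon-induced GTPase. The list medians were 0.30 and 0.41, against -0.29 and -0.18 for all genes. Psmb8's intermediate call ended without Control 1 or 4 or RMA intermediate 1 or 3 (adjusted p 0.0787 to 0.109). Of the late calls, Tap1's ended without Control 1 or RMA late 2 (0.0694 and 0.0666), Psmb9's without Control 1 or RMA late 1 or 2 (0.0527 to 0.0706), and B2m's without Control 1, 2 or 4 or RMA late 1 or 2 (0.0559 to 0.230). Without the 4 libraries low in immediate early genes, Psmb8's intermediate call (0.0724) and B2m's late call (0.151) ended as well. These calls held in 11 of 17 and 9 of 17 alternatives, and both also ended in alternatives that left out no library. In RMA-KR late 0 were called by edgeR (5 at an unadjusted p under 0.05), 2 by DESeq2 and 0 by limma voom. The plot of pathway lists shows every tested gene of these lists.

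Set against RMA early, RMA late had calls in the same lists, all of them higher. Over all 17097 genes tested, 372 were called higher and 119 lower in this comparison. Usp18 (2.04, SE 0.43, adjusted p 0.0129) and Zbp1 (1.09, SE 0.30, adjusted p 0.0475) were called, with 5 of 26 ISGF3 targets, Xaf1 (1.90, SE 0.30), Ifi44 (4.73, SE 1.00), Ifi27l2a (5.02, adjusted p 0.0150), Oas1a (1.95, SE 0.46) and Lgals3bp (1.21, SE 0.29), and 2 of 18 IRF1 targets, Psmb8 (1.04, SE 0.18) and Psmb9 (0.89, SE 0.22). Xaf1 and Psmb8 held in 15 of 16 alternatives and with every library left out singly. Each of them ended in another alternative (adjusted p 0.114 and 0.127). All other calls given here likewise ended in some alternative that left out no library. Usp18 held in 13 of 16, Oas1a in 12, Lgals3bp and Psmb9 in 11 and Zbp1 in 6, and Ifi44 in 13 and Ifi27l2a in 12 of 15. Zbp1's call also ended without the 4 libraries low in immediate early genes (adjusted p 0.0823). Leaving out RMA late 2 ended each of the other 7 calls (adjusted p 0.0551 to 0.286). RMA late 1 ended those of Zbp1, Oas1a, Lgals3bp and Psmb9 (0.0661 to 0.134), RMA early 1 the same 4 and that of Ifi27l2a (0.0527 to 0.240), RMA early 2 those of Usp18 and Zbp1 (0.0560 and 0.0889), and RMA early 3 those of Lgals3bp and Psmb9 (0.0544 and 0.0561).

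**Figure D3:**
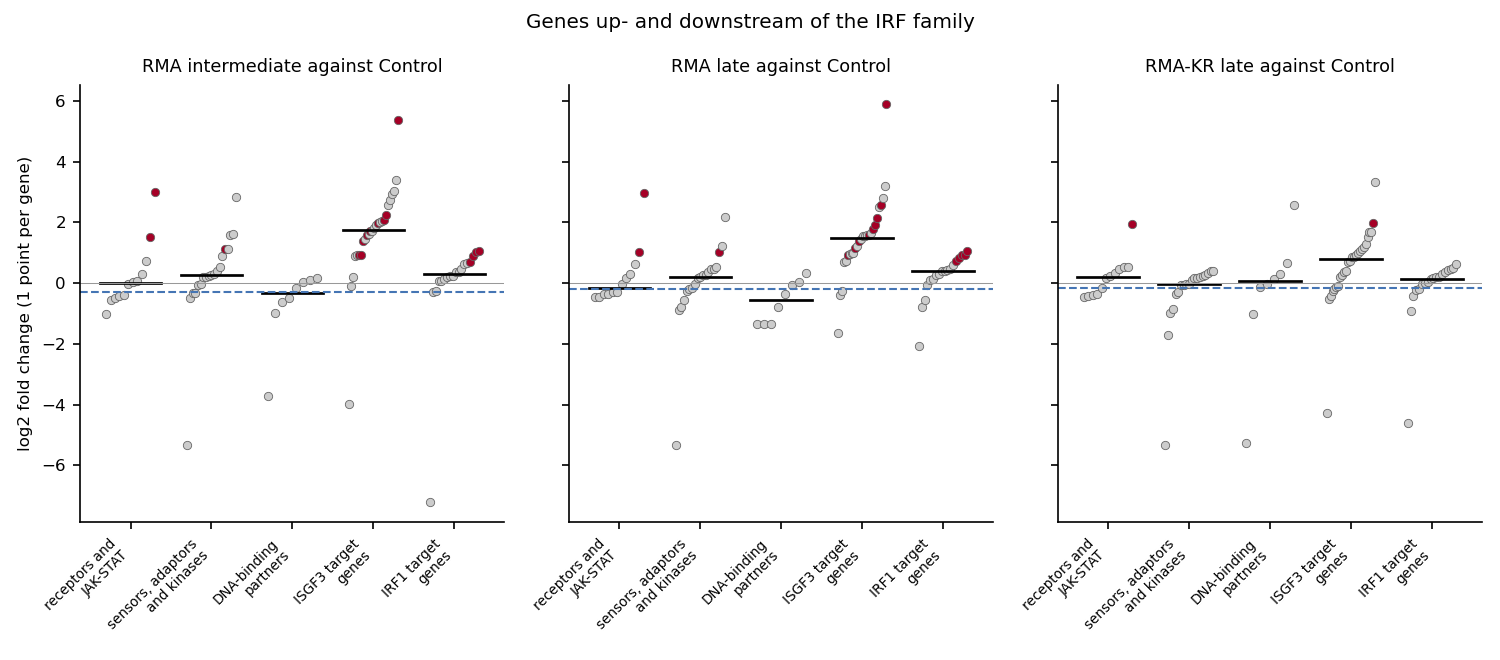
Log2 fold change against Control of each tested gene (1 point a gene) of the IRF-related lists in RMA intermediate, RMA late and RMA-KR late; red points have an adjusted p under 0.05, black lines are list medians and blue dashed lines the median of all genes tested. The ISGF3 target list has a median of 1.76 in RMA intermediate and 0.78 in RMA-KR late, against -0.29 and -0.18 for all genes.

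Genes for proteins that act beside the IRFs were not called. Of 8 DNA-binding partners tested 0 were called by edgeR in the 12 comparisons (0 to 3 at an unadjusted p under 0.05, and 0 or 1 by DESeq2 and by limma voom). Spi1, which encodes PU.1, had group means of at most 1.20 CPM, and Batf 40.3 to 70.8 CPM. Of 3 genes for IRF2-binding proteins 0 were called by edgeR (0 to 2 at an unadjusted p under 0.05, and 0 or 1 by DESeq2 and by limma voom). Irf2bpl lay below the Control range in RMA late (40.8 CPM, SD 14.3, against 108 CPM, SD 20.3; log2 fold change -1.40, SE 0.41, adjusted p 0.0711) and in RMA-KR early (30.9 CPM, SD 2.86; -1.80, SE 0.42, adjusted p 0.100).

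Irf8, Irf4 and Irf5 are also abundant in other leukocytes, so the marker lists of those cells stand beside them. Of 10 B cell markers 8 passed the filter, and they summed to 218 to 581 CPM, of which Ighm made up 213 to 483 CPM. Ms4a1 was at 0 in 17 of 24 libraries and Pax5 in 14. The list averaged 311 CPM in Control (SD 71.0), 324 CPM in RMA intermediate (SD 14.4), 352 CPM in RMA late (SD 28.1) and 493 CPM in RMA-KR late (SD 86.0). Of 11 macrophage and monocyte markers 4 passed, with a sum of 4.14 to 80.2 CPM and Cd68 the most abundant. C1qa and Fcgr1 were at 0 in 22 libraries each. This sum was 13.9 CPM in Control (SD 4.21), 18.6 CPM in RMA intermediate (SD 1.99), 40.7 CPM in RMA late (SD 9.15) and 63.4 CPM in RMA-KR late (SD 21.2). Every library of RMA late (at least 34.2 CPM), RMA-KR late (39.6 CPM) and RMA-KR early (29.25 CPM) lay above all Control libraries (at most 18.7 CPM). Of 10 dendritic cell markers 8 passed, with a sum of 11.4 to 119.5 CPM, Zbtb46 the most abundant and Clec9a at 0 in 18 libraries. Their sum was 25.9 CPM in Control (SD 14.1), 60.8 CPM in RMA early (SD 23.6), 25.7 CPM in RMA intermediate (SD 6.44), 30.2 CPM in RMA late (SD 16.0) and 73.6 CPM in RMA-KR intermediate (SD 43.6). The NK cell markers summed to 27410 CPM in Control (SD 5549) and to 34210 CPM in RMA late (SD 3166), with overlap. Among them 1 of 10 was called lower in RMA late against Control. No single marker of the B cell, macrophage and dendritic lists was called by edgeR in either RMA comparison with Control (1 B cell marker at an unadjusted p under 0.05 in RMA intermediate, which DESeq2 and limma voom called). The part of such cells in the Irf8, Irf5 and Irf4 values was not tested.

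T cell markers, which matter as RMA is a T lymphoma, passed the filter in 8 of 11 cases, with Trbc1 the most abundant at 180.5 to 419 CPM and Cd3e at 0 in 12 libraries. They summed to 342 to 414 CPM in Control, to 282 to 329 CPM in RMA intermediate, below every Control library, and to 467 to 596 CPM in RMA late, above every Control library. RMA-KR intermediate had 374.5 to 479.5 CPM, overlapping Control, and RMA-KR late 416 to 506 CPM, above it. Their part in the Irf8 values was not tested. Plasma cell markers (4 of 7 past the filter) summed to 239 to 481 CPM, nearly all Xbp1 and Prdm1, with Mzb1 at 0 in 20 libraries. Granulocyte (1 of 9) and erythroid (1 of 7) markers summed to at most 17.2 and 3.83 CPM. Mki67, a gene of dividing cells noticed after its values were seen, stood at 266 to 358 CPM in RMA intermediate, 260.5 to 328 CPM in RMA late and 243 to 334 CPM in RMA-KR late, against 7.05 to 60.8 CPM in Control, and its part in the Irf8 values was not tested.

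The 4 libraries low in immediate early genes were also low in Irf8 within their groups. Control 4, with 1296 CPM of them, had the lowest Irf8 of its group (757 CPM), and RMA-KR intermediate 3, 4 and 5 (1253, 1389 and 1277 CPM) had 951, 1082 and 794 CPM of Irf8, against 1505 and 1441 CPM in RMA-KR intermediate 1 and 2 (9862 and 8901 CPM). Other genes differed in the same libraries. The NK cell markers summed to 19720, 19190 and 18280 CPM in RMA-KR intermediate 3, 4 and 5, against 31610 and 33840 CPM in 1 and 2, and the dendritic cell markers to 75.7, 119.5 and 110 CPM, against 48.6 and 14.1 CPM. Without the 4 libraries Irf8 remained called in RMA intermediate and RMA late against Control, and its call in RMA intermediate against RMA-KR intermediate ended (0.63, adjusted p 0.319). Without Control 4 alone the RMA late call ended (adjusted p 0.0718). Which of these differences goes with the Irf8 level was not tested. The plot of immediate early genes shows this by library.

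**Figure D4:**
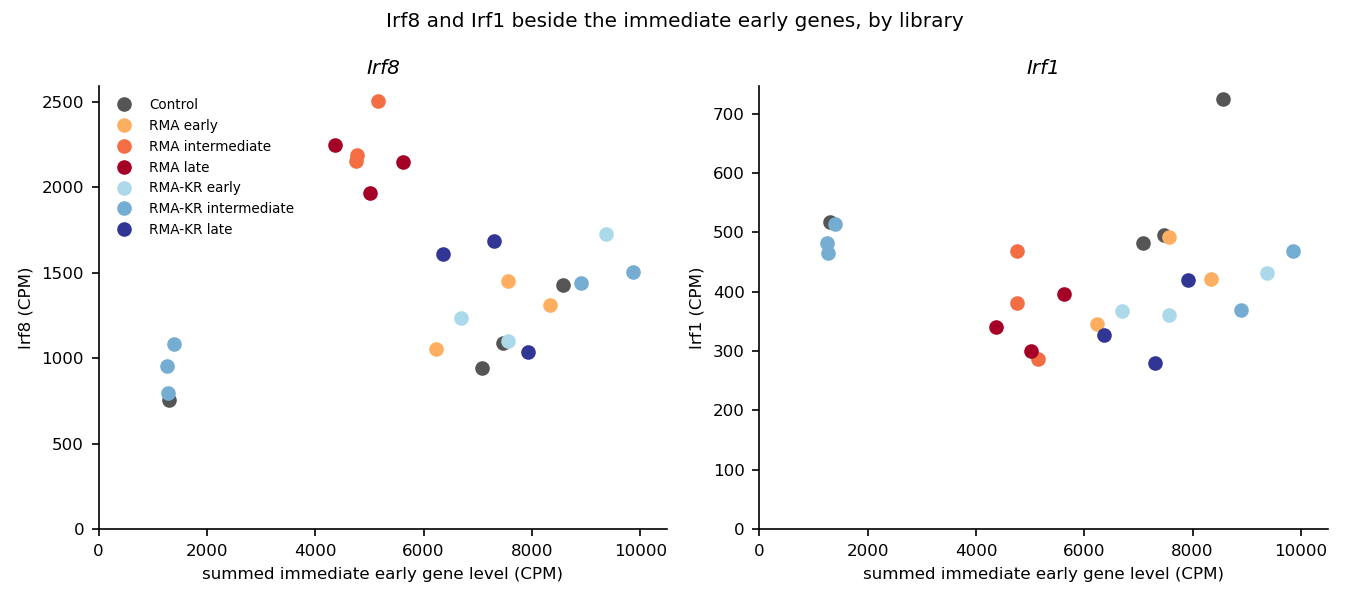
CPM of Irf8 and of Irf1 (y axes) against the summed CPM of the immediate early genes (x axis), 1 point a library, coloured by group. The 4 libraries at 1253 to 1389 CPM stand apart from the other 20, and their Irf8 values run from 757 to 1082 CPM.

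Some members share exon bases with a neighbour. The union mode of the counting leaves out reads that touch both genes, so counts there are a lower limit, for genes on opposite strands only if strand was ignored, which was not stated. Irf9 shares 123 bases with Rnf31 on the same strand, and Irf1 (135 bases, Gm17334), Irf3 (88, Bcl2l12), Irf5 (411, Tnpo3) and Irf7 (45, Phrf1) share bases with genes of the opposite strand. Rnf31 averaged 116 CPM in Control (SD 36.2), 135 CPM in RMA intermediate (SD 17.5) and 87.2 CPM in RMA late (SD 26.9). Tnpo3 averaged 177 CPM in Control (SD 43.3) and 159 CPM in RMA intermediate (SD 48.6), where Irf5 lay above Control. Irf8 (chromosome 8, 120736358 to 120756694), Irf2 (chromosome 8, 46739732 to 46847458) and Irf4 (chromosome 13, 30749226 to 30766976) share none.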

How the data were processed

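The authors deposited raw counts per gene for 24 polyA RNA libraries of sorted spleen NK cells. Their notes give trimming with cutadapt 1.10, removal of rRNA reads with Bowtie2 2.2.8, alignment to mm10 with STAR 2.5.3a and counting with HTSeq 0.6.1p1. The deposited median transcript length per gene (other, in bases) set members on a per-length scale. Of 112 columns, 48 other per-library columns were not used.

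In R 4.3.3, edgeR 4.0.16 (TMM, filterByExpr on the 7 groups, robust quasi-likelihood test, 1 mean per group, all 24 libraries) tested 17097 of 45237 genes (37.8%) in 12 comparisons. Called means a Benjamini-Hochberg adjusted p under 0.05 over all genes tested. SE is the absolute log2 fold change over the root of F. Alternatives were DESeq2 1.42.0 size factors in edgeR, DESeq2 with and without betaPrior, limma 3.58.1 voom with sample quality weights, no filter, at least 10 counts in every library, a block for replicate number, a covariate for immediate early genes, only the groups compared, each library left out, and, added after seeing the data, the 4 libraries low in immediate early genes left out. The pipeline was tested on simulated data.

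Members and lists were chosen with earlier results of these data known. Named were all members; from each pathway list the called genes, at most the 6 with the smallest p and those whose call ended without 1 library, or where none was called up to 2 of the most abundant; the 3 genes most like each member among those with a mean log2 CPM of at least 3 (prior count 2); and from each marker list its most abundant gene and markers at 0. Results on a few genes that met these rules are left out of the text. Spi1, Batf and Stat2 were added for their known part as partners of IRF proteins, and Ncr1 and Mki67 as markers, with values known.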

Additional observations from a re-analysis of the deposited data

Results flagged for a closer look

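Among the 4 Control libraries 2 members had a library far from the rest: Irf1 read 724 CPM in Control 3, against 482 to 517 CPM in the others, and Irf3 read 168 CPM in Control 4, against 123 to 127 CPM. Of 16 combinations of member and group with 4 or 5 libraries, these 2 met the test on gaps, which chance meets in about 1 in 20.

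The tumor models differed at the intermediate stage, by edgeR's test of the difference, in Irf8 (log2 fold change 0.98, RMA minus RMA-KR), Usp18 (1.99), Xaf1 (1.28), Bst2 (1.52), Parp9 (0.97), Trim30a (1.41) and Ifi27l2a (4.02). The day after injection differed too (4 and 7), and line and day cannot be told apart.

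The Irf3 libraries of RMA intermediate (111 to 133 CPM) all lay below the Control mean of 136 CPM and those of RMA-KR intermediate (146 to 175 CPM) all above it, a difference of means of -31.9 CPM. The Control mean includes Control 4 (168 CPM). Beside the other 3 Control libraries (123 to 127 CPM), RMA intermediate had values on both sides. The test of the difference did not pass (adjusted p 0.346).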

How the results depend on the processing

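Irf8 in RMA intermediate against Control was called in 17 of 17 alternatives. The number of members called there was 1, against 3 with DESeq2's test (955 of 44723 genes called), 3 with its betaPrior option (889), 5 with limma voom (2109 of 17097) and 3 with only the compared groups fitted (1246 of 12191). For RMA late against Control (1) it was 3, 3 and 3 with those tools (1054, 990 and 1587 called), 2 when each library needed 10 counts or more (644 of 7800), and 0 to 1 with single libraries left out. For RMA-KR late against Control (0) it was 1 with each of DESeq2, betaPrior, limma voom and the 10-count filter (663, 580, 406 and 300 genes). For RMA intermediate against RMA-KR intermediate (1) it was 2 with limma voom (963 genes), 0 with the replicate block (47), 0 without the 4 libraries low in immediate early genes (90), and 0 to 1 with single libraries left out. For RMA late against early (0) it was 2 with no filter (613 genes) and 1 with an immediate early covariate (539), and for RMA-KR late against early (0) 2 with DESeq2, 2 with betaPrior, 1 with no filter and 1 with the 10-count filter (609, 449, 366 and 161 genes). RMA early against Control (0) gave 1 with no filter (91 genes), Irf4, which the 10-count filter left untested. Small Irf8 differences changed sign: RMA-KR intermediate against Control without Control 4 (-0.0029; 0.309 without Control 3), RMA early against RMA-KR early with limma voom (0.0414), without RMA early 1 (0.0474) or RMA-KR early 1 (0.101; -0.193 without RMA-KR early 3), and RMA-KR late against early without RMA-KR early 3 (-0.0022) or RMA-KR late 1 (-0.0382; 0.320 without RMA-KR late 3). The cause was not tested.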
